A study of Mus musculus with 2 samples.

Results

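Regulatory T cells carrying transcripts of Klrg1, a lectin-like inhibitory receptor, were examined in MB49 tumours. MB49 is a mouse line of bladder carcinoma that is transplanted into host mice. A member was a cell barcode with at least 2 unique molecular identifiers (UMIs, 1 per captured transcript) of Foxp3, at least 1 of Klrg1, none of Cd8a or Cd8b1 and at most 25000 in all, among barcodes that showed 500 or more genes and had no more than 10% of UMIs from mitochondrial genes. The rule took 277 of the 6987 barcodes that passed this filter, 110 of them female and 167 male. Klrg1, Foxp3, Cd8a and Cd8b1 therefore chose the members, and their values are given as a description.

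There was 1 library from male and 1 from female C57BL/6J mice aged 12 to 14 weeks, and both were made from tumours harvested on day 14 after transplant. Tumours were digested with collagenase, viable cells positive for CD4 were sorted, and 10000 to 20000 of them went into each droplet library, which sequenced transcripts from their 5′ end. All mice carried the tumour, so there was no tumour-free group, and how many mice each library pooled is not given in the sources used here. The members were set against 206 barcodes that met the same rule with no Klrg1 UMI (82 female, 124 male; the Klrg1-negative Treg barcodes) and against 472 Foxp3-negative Cd4 barcodes (242 female, 230 male), which had at least 1 UMI of Cd4 and of Cd3d, Cd3e or Cd3g and none of Foxp3, Cd8a or Cd8b1.

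Foxp3 is the transcription factor that sets the regulatory T cell (Treg) programme, and these cells restrain other lymphocytes through CTLA-4, secreted cytokines, uptake of interleukin 2 and breakdown of extracellular ATP. KLRG1 binds cadherins and is known as a receptor of antigen-experienced, differentiated T cells, and among Treg cells as a marker of effector cells in tissues. Such tissue Treg cells are also known for amphiregulin, the growth factor encoded by Areg, for the transcription factor Helios (Ikzf2) and for the integrin CD103 (Itgae), which binds E-cadherin on epithelium.

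Members had medians of 7473 (female) and 6576 (male) UMIs, Klrg1-negative Treg barcodes 5814.5 and 5582.5, and Foxp3-negative Cd4 barcodes 5187 and 5244. Finding 1 Klrg1 UMI is likelier in a deeper barcode, so references were matched to members on total UMIs. The 2 libraries shared 16 barcode sequences, none of them a member. Although the sort was for CD4, 318 of 514 female and 413 of 708 male barcodes with at least 2 Foxp3 UMIs also held a Cd8a or Cd8b1 UMI and were left out, and 242 and 328 of these had a Klrg1 UMI. A further 4 in each library exceeded the limit on total UMIs. Cd8 barcodes without Foxp3 (at least 2 Cd8a or Cd8b1 UMIs, with Cd3, within that limit) numbered 1890 of the 3468 female barcodes that passed the filter. In the male library they numbered 1687 of 3519. Levels are given as CPM, the UMIs of a gene scaled to 1000000 UMIs of the summed barcodes of a library, and 95% intervals are exact and cover counting error only.

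The label genes were present in the members of both libraries. Klrg1 (chr6:122270596-122282882, minus strand, GRCm38) stood at 786 CPM in female and 702 CPM in male members, with a median of 5 and 3 UMIs per barcode and a highest count of 25 in each library. Foxp3 (chrX:7573644-7595245, plus strand) stood at 635 and 733 CPM, against 747 and 721 CPM in Klrg1-negative Treg barcodes. Ikzf2 stood at 946 and 1050 CPM in members, 1040 CPM in both libraries' Klrg1-negative Treg barcodes and 105 and 159 CPM in Foxp3-negative Cd4 barcodes. Itgae stood at 235 and 295 CPM in members, 164 and 212 CPM in Klrg1-negative Treg barcodes and 10.4 and 17.5 CPM in Foxp3-negative Cd4 barcodes. Cd4 stood at 176 and 199 CPM in members and at 6.47 and 5.64 CPM in Cd8 barcodes without Foxp3.

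In droplets, free RNA can give a UMI to a cell that lacks the gene, so Klrg1 was counted in other cells. It was found in 0 of 29 female and 0 of 23 male keratin-positive barcodes without Cd3, at median depths of 52964 and 43236 UMIs, which with a floor of 3 barcodes allows shares of up to 10.3% and 13% (exact upper 95% bounds 11.9% and 14.8%). Cd8 barcodes without Foxp3 had one in 10.7% (female, median depth 9135 UMIs) and 8.71% (male, 8109), and Foxp3-negative Cd4 barcodes in 19.4% and 6.09%. Of the marker lists of other cells, the gamma-delta T cell genes (Trdc, Tcrg-C1, Tcrg-C4, Trdv4) and the mast cell and basophil genes (Cpa3, Mcpt8, Fcer1a, Ms4a2, Mcpt4) were at 0 UMIs in both libraries' members. The 6 natural killer genes summed to 19 female and 10 male UMIs, 15 of the female ones in 1 barcode, with Ncr1, Klra8, Klra4 and Eomes at 0. The 9 myeloid markers summed to 23 and 59 UMIs. The 6 class II antigen-presenting cell genes, which include Cd74, stood at 1769 CPM in female and 1860 CPM in male members, against 374 and 498 CPM in Klrg1-negative Treg barcodes, with Itgax and Flt3 at 0 in all of these. The 6 B cell markers stood at 183 and 197 CPM in members, against 175 and 261 CPM in Klrg1-negative Treg barcodes, with Ms4a1 and Jchain at 0. In the female Klrg1-negative Treg barcodes the myeloid markers summed to 344 UMIs, 324 of them in 1 barcode.

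**Figure D1:**
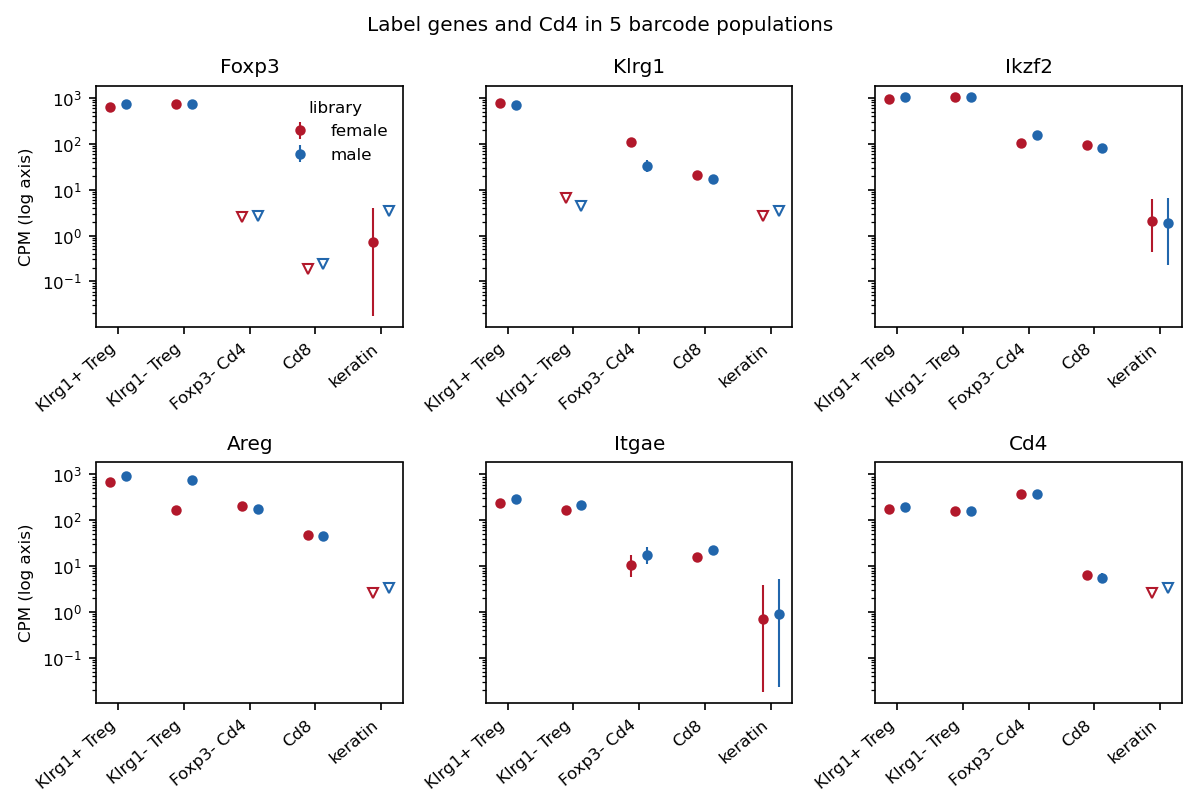
Level of the 5 label genes and Cd4 in CPM (log axis) in 5 barcode populations, with the female library in red, the male library in blue and exact Poisson intervals as bars; open triangles mark the upper bound where no UMI was counted. Ikzf2 and Itgae stood above the Foxp3- Cd4 barcodes in both Treg populations, and Areg in Klrg1- Treg barcodes was 169 CPM in the female library, with 741 CPM in the male one.

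The share of Treg barcodes that were Klrg1-positive was nearly equal in the libraries. Of 192 female barcodes 57.3% were (Clopper-Pearson interval 49.97% to 64.4%), and of 291 male barcodes 57.4% (51.5% to 63.1%). Female minus male was -0.0966 points, with an interval from -9.41 to 9.13. After thinning every barcode to 3659 UMIs, with 176 female and 258 male barcodes deep enough, the shares were 52.3% and 50.5%, 1.86 points apart (-8.02 to 11.7). With at least 2 Klrg1 UMIs asked, the shares were 47.9% and 43.0%. Exactly 1 Klrg1 UMI was held by 18 female and 42 male members, and exactly 2 Foxp3 UMIs by 20 and 22, while 21 female and 23 male barcodes had Klrg1 but a single Foxp3 UMI and so stood just outside.

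Set against depth-matched Klrg1-negative Treg barcodes, members were higher in Lag3, Tigit, Nkg7, Gzmb, Penk, Ccl3, Ccl4, Csf1 and Cxcr6, among others, and lower in Tcf7, S1pr1, Emb, Il18r1, Tox and the chemokine gene Cxcl10. Each of 78 female and 120 male members was paired with a Klrg1-negative Treg barcode of the same library with a total within 20%, UMIs were summed per library and population, and edgeR's quasi-likelihood test was run with the library as a block. Of 7037 genes tested, 59 (0.838%) passed a Benjamini-Hochberg adjusted p of 0.05, 33 (0.469%) higher and 26 (0.369%) lower in members. All 59 had the same direction in both libraries, but they were called from these same 2 libraries, so this is not separate evidence. Among the 26 were the receptor segments Trbv13-2, Trbv19 and Trav4-4-dv10 and the mitochondrial genes mt-Co3 and mt-Atp8. The repeated unit is the library, of which there were 2 that also differed in sex, leaving 1 residual degree of freedom, and nothing says that mice were kept apart within them. The matched members remained deeper (medians 7213 against 5934 UMIs in the female library, with 6957.5 against 5610.5 in the male one); with pairs held within 5%, 0 of 6715 genes passed in edgeR (569, or 8.47%, had an unadjusted p under 0.05, against 750, or 10.7%, as first matched), and the 57 called genes that still had a value kept their direction. Without matching, 272 genes passed in edgeR (3.62%), 142 higher (1.89%) and 130 lower (1.73%). DESeq2 called 8 genes (0.114%; 92, or 1.31%, had an unadjusted p under 0.05), 7 higher (0.0995%) and 1 lower (0.0142%), all among the 59: Lag3, Penk, Nkg7, Gzmb, Glrx, Ccl4 and Frmd5 higher and Emb lower. These percentages are of all 7037 genes. DESeq2's own filter on low counts left several of the 59 without an adjusted p, among them Tcf7, Il18r1, S1pr1 and Cxcl10, so its count does not cover them.

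**Figure D2:**
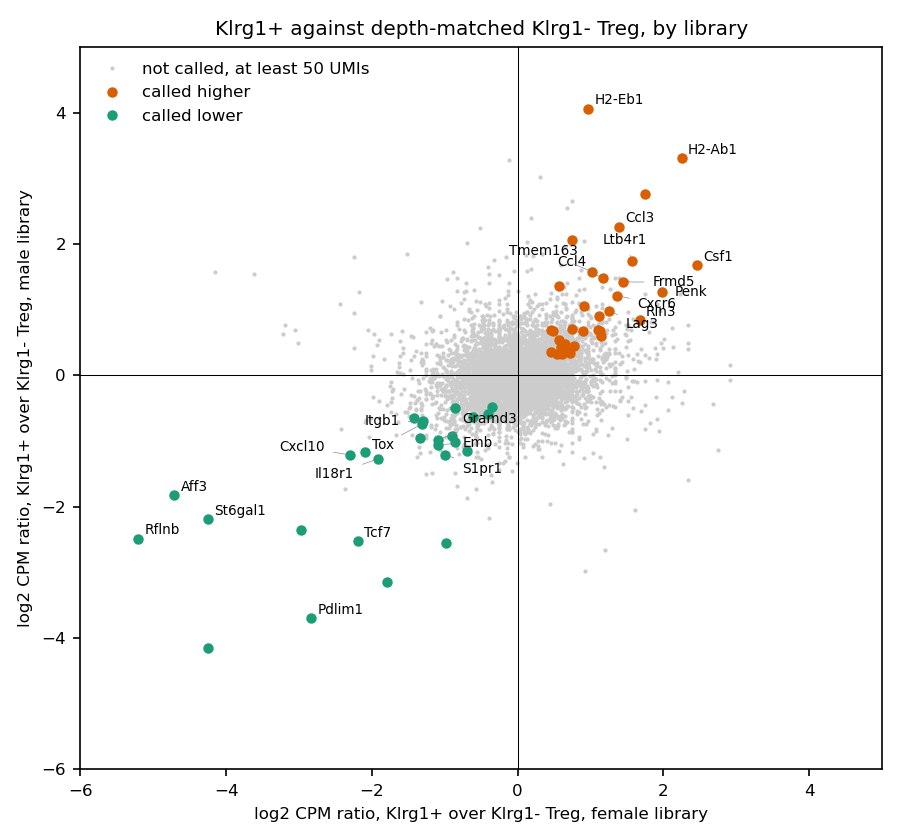
Log2 ratio of CPM in Klrg1+ over matched Klrg1- Treg barcodes in the female (x axis) and male library (y axis); each point is a gene, orange and green points passed edgeR's test, grey points did not, and a population at 0 UMIs was set to 3. The 33 orange points lie right of and above 0 in both libraries and the 26 green points left of and below it. They were called from these same 2 libraries, so the shared direction is not separate evidence.

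Lag3, an inhibitory receptor that binds MHC class II (chr6:124904361-124911705, minus strand), was at 729 CPM in female members against 306 CPM in their reference and at 915 against 466 CPM in the male library. Its log2 difference was 1.10 (SE 0.12, edgeR adjusted p 0.00168). Nkg7, a granule protein of cytotoxic lymphocytes (chr7:43437073-43438249, plus strand), was at 592 against 273 CPM and at 686 against 366 CPM, a log2 difference of 1.0 (SE 0.12, edgeR adjusted p 0.00309). Gzmb, the serine protease granzyme B (chr14:56258838-56262260, minus strand), was at 3818 against 2439 CPM and at 3297 against 2371 CPM, a log2 difference of 0.56 (SE 0.08, edgeR adjusted p 0.0052). In each of these 3 genes both members' values were above both reference values. Lag3 and Gzmb were also abundant in Cd8 barcodes without Foxp3. Lag3 stood there at 661 CPM (female) and 594 CPM (male), and Gzmb at 1768 and 1624 CPM. After thinning, 60.4% and 50.1% of these Cd8 barcodes held a Lag3 UMI, against 54.0% and 64.9% of members. A Gzmb UMI was held by 68.0% and 60.0% of them, against 93.0% and 90.2% of members. Tigit, an inhibitory receptor for poliovirus-receptor-type ligands, rose by a log2 of 0.55 (SE 0.10, edgeR adjusted p 0.0208) and Entpd1, the ATP-degrading enzyme CD39, by 0.99 (SE 0.20, edgeR adjusted p 0.0442).

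Penk, which encodes the opioid precursor proenkephalin (chr4:4133531-4138819, minus strand), was at 402 against 102 CPM in the female library, with 769 against 319 CPM in the male one, a log2 difference of 1.53 (SE 0.16, edgeR adjusted p 0.00168). Few barcodes carried it: 8 of the 78 matched female members against 7 of their references, and 26 of the 120 male ones against 17. Thinned to 3659 UMIs, the shares with a Penk UMI were 9.85% against 8.53% and 19.8% against 12.1%, beside 4.73% and 6.32% of Cd8 barcodes without Foxp3. In the female library 40.3% of the matched members' Penk UMIs lay in 1 barcode. Ccl4, an inflammatory chemokine, was at 229 against 102 CPM and at 355 against 128 CPM, and its neighbour Ccl3 at 38.9 against 14.8 CPM and at 147 against 30.7 CPM, and both rested on few barcodes. Of Ccl4 UMIs, 1 barcode held 45.6% in female members, 74.5% in their reference, 23.4% in male members and 51.9% in theirs, and of Ccl3 UMIs 24%, 87.5%, 48.6% and 32%. Csf1, the macrophage growth factor, was at 71.6 against 13 CPM and at 102 against 31.9 CPM, a log2 difference of 1.91 (SE 0.28, edgeR adjusted p 0.00768). Ltb4r1, the receptor for leukotriene B4, was at 82.5 against 27.8 CPM and at 86.1 against 25.8 CPM. Cxcr6, a chemokine receptor of tissue-resident T cells, was at 243 against 94.6 CPM and at 196 against 84.6 CPM, a log2 difference of 1.28 (SE 0.18, edgeR adjusted p 0.0052). The remaining named higher genes were Frmd5 (log2 1.43), Tmem163 (1.32) and Rln3 (1.18), a relaxin-family peptide gene.

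Tcf7, the transcription factor TCF-1 of naive and memory-like T cells, was at 9.34 against 42.7 CPM in the female library, with 8.30 against 47.8 CPM in the male one, a log2 difference of -2.36 (SE 0.37, edgeR adjusted p 0.00988). S1pr1, the receptor that guides lymphocytes out of tissue, was at 71.6 against 143 CPM and at 45.7 against 105 CPM, a log2 difference of -1.10 (SE 0.20, edgeR adjusted p 0.0268). Emb, an immunoglobulin-family glycoprotein, was at 240 against 512 CPM and at 182 against 378 CPM, a log2 difference of -1.08 (SE 0.13, edgeR adjusted p 0.00318). Il18r1, a chain of the interleukin 18 receptor, was at 34.2 against 130 CPM and at 40.5 against 98.1 CPM. Itgb1, the integrin beta 1 chain, was at 93.4 against 230 CPM and at 105 against 171 CPM. Tox, a transcription factor of chronically stimulated T cells, was at 134 against 334 CPM and at 121 against 204 CPM. In all 6 genes both members' values lay below both reference values. Cxcl10, an interferon-induced chemokine, and Gramd3 had log2 differences of -1.57 and -1.04. Few barcodes carried Cxcl10: 5 female and 8 male matched members, against 9 and 10 of their references. In 1 barcode lay 37.5% of the female and 51.7% of the male member UMIs of Cxcl10. The widest decreases among the named genes were in sparse ones: Rflnb (1 and 4 UMIs in female and male members against 31 and 19), Pdlim1 (4 and 2 against 24 and 22), St6gal1 (1 and 7 against 16 and 27) and Aff3 (1 and 8 against 22 and 24).

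**Figure D3:**
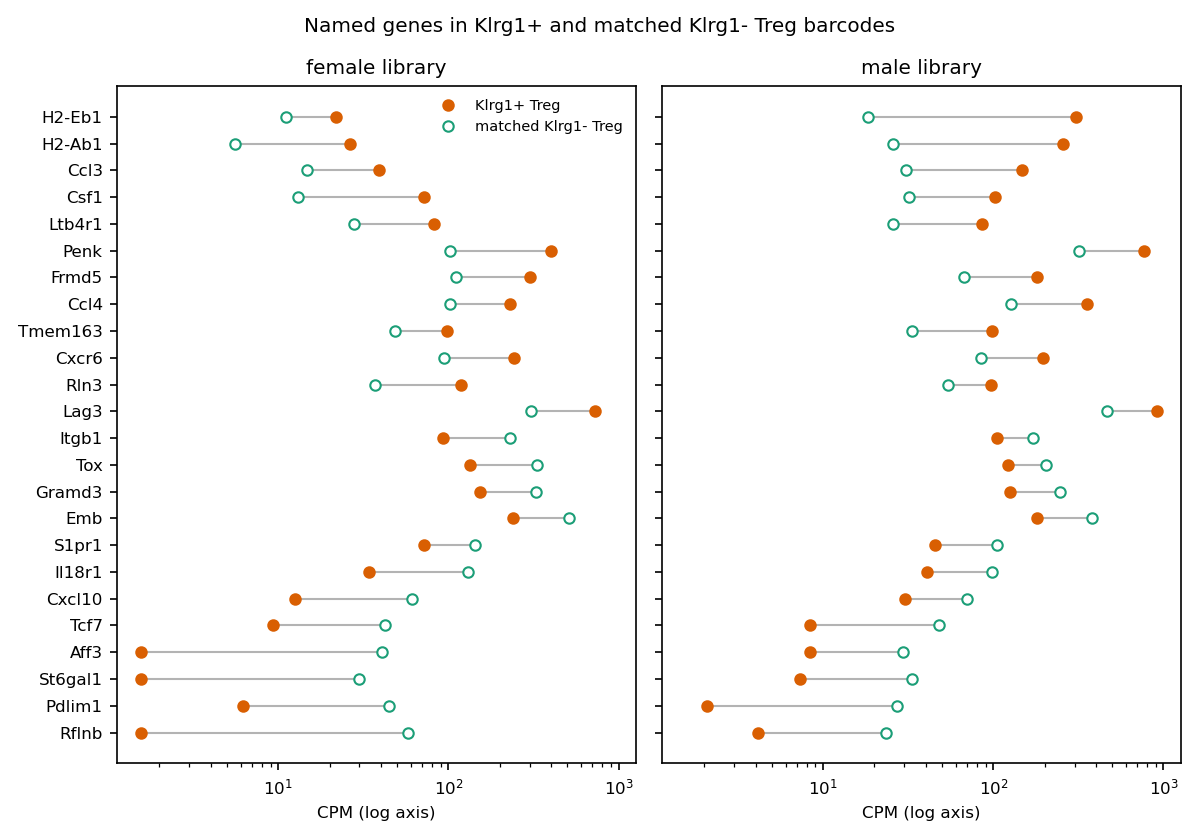
CPM (log axis) of the 24 named genes, 12 called higher and 12 called lower, in Klrg1+ Treg barcodes (filled orange) and matched Klrg1- Treg barcodes (open green), female library left, male library right; each point is 1 summed population. Genes were named only if their direction was the same in both libraries, so the shared order of the 2 points was set by that choice. Lag3 stood at 729 and 915 CPM in members.

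MHC class II genes headed the higher calls, and they came from few barcodes. H2-Eb1 was at 21.8 against 11.1 CPM in the female library, with 307 against 18.4 CPM in the male one, and H2-Ab1 at 26.5 against 5.56 CPM and 255 against 25.8 CPM. Of the class II UMIs of all members (H2-Aa, H2-Ab1 and H2-Eb1), 94.6% of 753 female and 81.4% of 992 male UMIs lay in 2 barcodes of each library, and 3 female and 7 male barcodes had at least 5. Those barcodes had median totals of 12565 and 13089 UMIs and held 3 and 15 UMIs of myeloid and B cell markers, and Itgax and Flt3 were at 0. Leaving out the 4 female and 7 male members, and the reference barcodes, with at least 5 UMIs of defining genes of other lineages, H2-Ab1 no longer passed (log2 1.61, edgeR adjusted p 0.0755) and H2-Eb1 fell below the filter on low counts, while 106 genes passed (1.54%), 58 higher (0.84%) and 48 lower (0.695%), 56 of them among the first 59. Cd74, the class II invariant chain, was at 504 against 339 CPM and at 1133 against 444 CPM, and still passed without them (edgeR adjusted p 0.0259).

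Sequences before the start of 3 called effector genes are shown because Nkg7, Gzmb and Cxcr6 moved together in both libraries and had an entry; they come from RefSeq's promoter windows (GRCm38.p6), 5′ to 3′ on the gene's strand, and were trimmed to end before the start of the gene in both RefSeq and GENCODE. Windows were searched on both strands for the AP-1 motif TGANTCA, the RUNX motif TGTGGT and the GATA motif AGATAA, and capitals mark matches. Nkg7 is chr7:43436888-43437072 (plus strand), Gzmb chr14:56262335-56262584 (minus strand) and Cxcr6 chr9:123806227-123806474 (plus strand).
Nkg7: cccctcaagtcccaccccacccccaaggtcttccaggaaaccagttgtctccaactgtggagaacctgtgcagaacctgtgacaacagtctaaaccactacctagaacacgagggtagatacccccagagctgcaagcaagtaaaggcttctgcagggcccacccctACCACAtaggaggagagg
Gzmb: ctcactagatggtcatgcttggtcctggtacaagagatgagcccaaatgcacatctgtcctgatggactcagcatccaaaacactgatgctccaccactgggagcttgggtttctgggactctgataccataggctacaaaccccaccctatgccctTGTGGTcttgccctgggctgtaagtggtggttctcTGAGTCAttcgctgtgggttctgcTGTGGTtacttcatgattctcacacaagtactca
Cxcr6: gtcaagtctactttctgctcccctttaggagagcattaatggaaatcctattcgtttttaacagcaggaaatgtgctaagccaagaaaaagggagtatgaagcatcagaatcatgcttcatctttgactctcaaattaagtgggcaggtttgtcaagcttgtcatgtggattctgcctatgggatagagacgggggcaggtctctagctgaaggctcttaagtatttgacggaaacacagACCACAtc
The Gzmb window held 1 AP-1 and 2 RUNX matches, and the Nkg7 and Cxcr6 windows 1 RUNX match each, read there on the opposite strand. Among the 250 bases before the start, the RUNX letters were present in 7 of 28 windows of genes called higher (25.0%), in 2 of 24 of genes called lower (8.33%) and in 14.0% of all 32851. The AP-1 letters were present in 10.7%, 8.33% and 6.75%, and the GATA letters in 14.3%, 8.33% and 9.99%. An entry was found for 23 of 31 genes called higher and 16 of 20 called lower, receptor segments, mitochondrial and predicted genes left aside; Klrg1, Lag3 and Penk were not matched.

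Gene groups were described by their called members and their median log2 difference, beside a median of 0.00 over all 7037 genes. Of all these genes 0.469% were called higher and 0.369% lower. Of 15 suppressive effector genes tested, 5 rose (Lag3, Entpd1, Tigit, Gzmb and Lgals1, which encodes galectin-1) and 0 fell, with a median of 0.55. The others included Prf1, the pore-forming perforin (log2 1.45, edgeR adjusted p 0.0714), and Il10 (0.57, edgeR adjusted p 0.289). Of 9 inhibitory receptors 2 rose, Lag3 and Tigit (median 0.53). Of 12 Treg core genes 2 rose, Il2ra, the interleukin 2 receptor alpha chain (log2 0.58, edgeR adjusted p 0.0457), and Tnfrsf4, the costimulatory receptor OX40 (log2 0.40, edgeR adjusted p 0.0266), and 0 fell (median 0.22). Ctla4 had a log2 difference of 0.34 (edgeR adjusted p 0.144) and Nrp1 one of -1.21 (edgeR adjusted p 0.164). Of 4 NK-type receptors and adaptors tested, Nkg7 rose.

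Of 15 resting and central genes, 3 fell, Tcf7, S1pr1 and Ms4a4b, and 0 rose, with a median of -0.64. Bach2, a repressor of effector differentiation, was at 32.7 against 122 CPM in the female library, with 24.9 against 39.3 CPM in the male one, and did not pass (edgeR adjusted p 0.101). Of 14 residency and adhesion genes, Cxcr6 rose and Itgb1 and S1pr1 fell (median -0.38). The list holds residency genes together with S1pr1, the receptor for exit from tissue, so its median is not a measure of residency. Of 14 genes of the S100, annexin and galectin group 2 rose, Lgals1 (log2 0.52) and Vim, an intermediate filament gene (log2 0.51), which did not pass without the barcodes holding other lineages' genes (edgeR adjusted p 0.0667). Of 13 Th1 genes, Cxcr6 rose and Il18r1 fell; Tbx21, the Th1 transcription factor T-bet, had a log2 difference of 0.80 (edgeR adjusted p 0.173).

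No gene passed in the lists of cell cycle (17 tested, median 0.59), cholesterol synthesis (11, 0.61), glycolysis and hypoxia (14, 0.26), interferon gamma response (17, 0.09), type I interferon (10, 0.05), TCR activation (15, -0.20), NF-kB and survival (12, -0.06), TGF-beta (12, -0.06), Th17 (5, -0.30) or AP-1 and heat shock (16, -0.03). All 17 cell cycle genes had a positive difference as first matched, and 8 of the 14 tested had one with pairs within 5% (median 0.07). Mki67, the proliferation gene, had 66% of its female and 44% of its male member UMIs in 1 barcode.

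**Figure D4:**
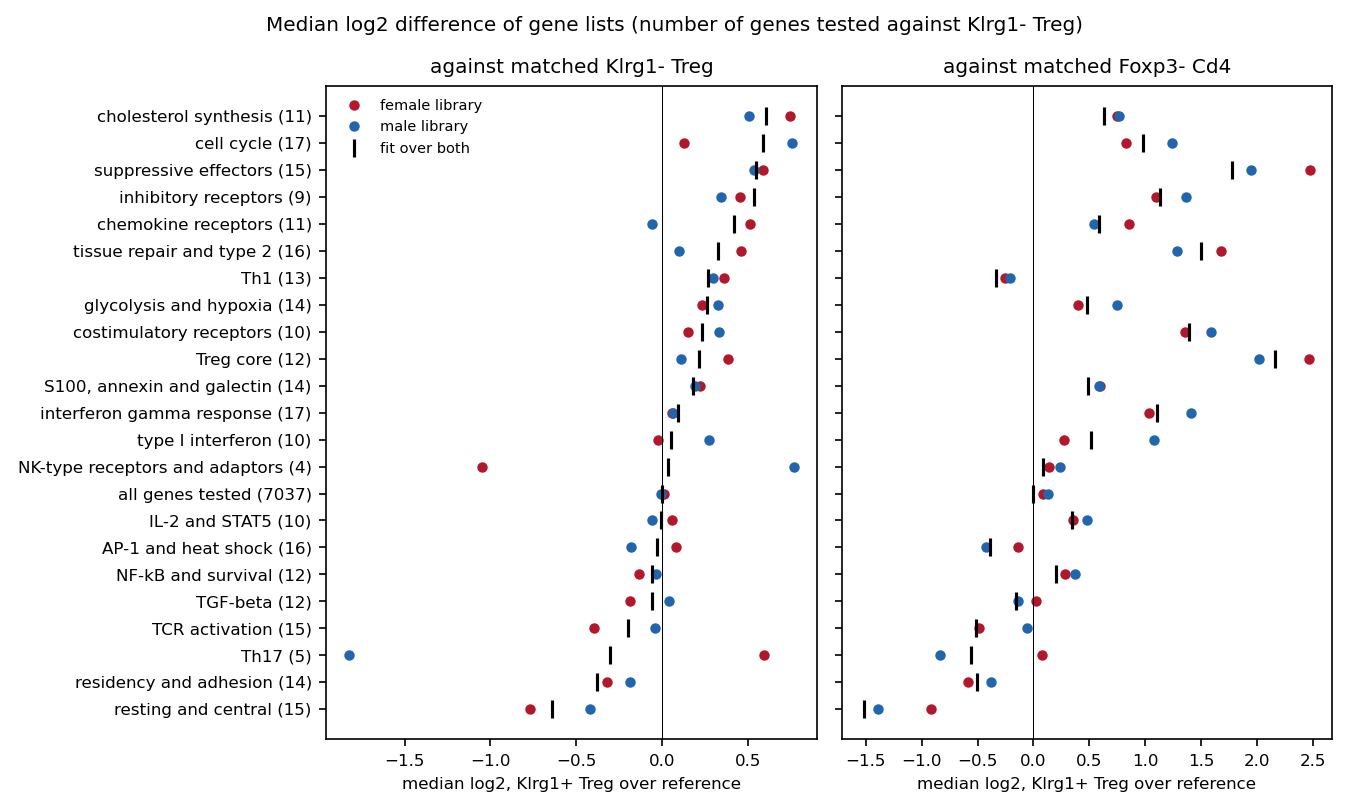
Median log2 difference of each gene list between Klrg1+ Treg barcodes and matched Klrg1- Treg barcodes (left) or matched Foxp3- Cd4 barcodes (right), with red and blue points for the female and male library and a black bar for edgeR's fit over both; numbers in brackets count genes tested on the left. Suppressive effectors stood at 0.55 and resting and central genes at -0.64 on the left, against 1.78 and -1.51 on the right.

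Tissue-repair and type 2 genes did not pass in the higher direction. Of 16 tested, Il18r1 fell and 0 rose (median 0.33). Areg was at 674 against 154 CPM in the female library, with 998 against 743 CPM in the male one, a log2 difference of 1.08 (SE 0.26) that missed the threshold (edgeR adjusted p 0.103); it passed without the barcodes holding other lineages' genes (0.0068). The female ratio alone was a log2 of 2.13 and the male one 0.43, and their difference was not tested. An Areg UMI was held by 50% of female and 50.9% of male members, against 32.9% and 46.0% of Klrg1-negative Treg barcodes, and after thinning by 44.7% and 46.2% against 26.1% and 37.8%. The thinned share in Cd8 barcodes without Foxp3 was 3.94% and 3.33%. Maf, a transcription factor of IL-10-producing T cells, had a log2 difference of 0.59 (edgeR adjusted p 0.0581), Ccr8, a chemokine receptor of tumour Treg cells, 0.58 (0.139), Il1rl1, the interleukin 33 receptor ST2, 0.29 (0.813), Itgae 0.41 (0.339) and Ikzf2 -0.03 (0.955), all adjusted p from edgeR.

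Levels by Klrg1 UMI number give the rule's threshold in detail, and depth rose with it, from medians of 5814.5 (female) and 5582.5 (male) UMIs at 0 Klrg1 UMIs to 8545 and 7220 at 4 or more. Lag3 was at 302, 678, 604 and 791 CPM in female barcodes with 0, 1, 2 to 3 and at least 4 Klrg1 UMIs, and at 463, 742, 792 and 1013 CPM in male ones. The step from 0 to 1 Klrg1 UMI was thus the largest in both libraries. Csf1 went through 12.8, 45.7, 70.7 and 78.3 CPM in the female library, with 32.9, 65.4, 90.5 and 123 CPM in the male one. Il18r1 stood at 128 CPM at 0 Klrg1 UMIs and between 30.5 and 45.0 CPM above it in the female library, and at 99.9 CPM and between 32.3 and 50.9 CPM in the male library. Areg climbed from 169 through 259 and 489 to 818 CPM in the female library, whereas male barcodes had 741, 920, 1184 and 806 CPM with no steady order. At 4 or more Klrg1 UMIs the 2 libraries' Areg intervals overlapped (750 to 890 and 740 to 876 CPM). Gzmb was lower in female barcodes with 1 Klrg1 UMI (1768 CPM) than with none (2403 CPM) and higher in male ones (3457 against 2356 CPM).

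**Figure D5:**
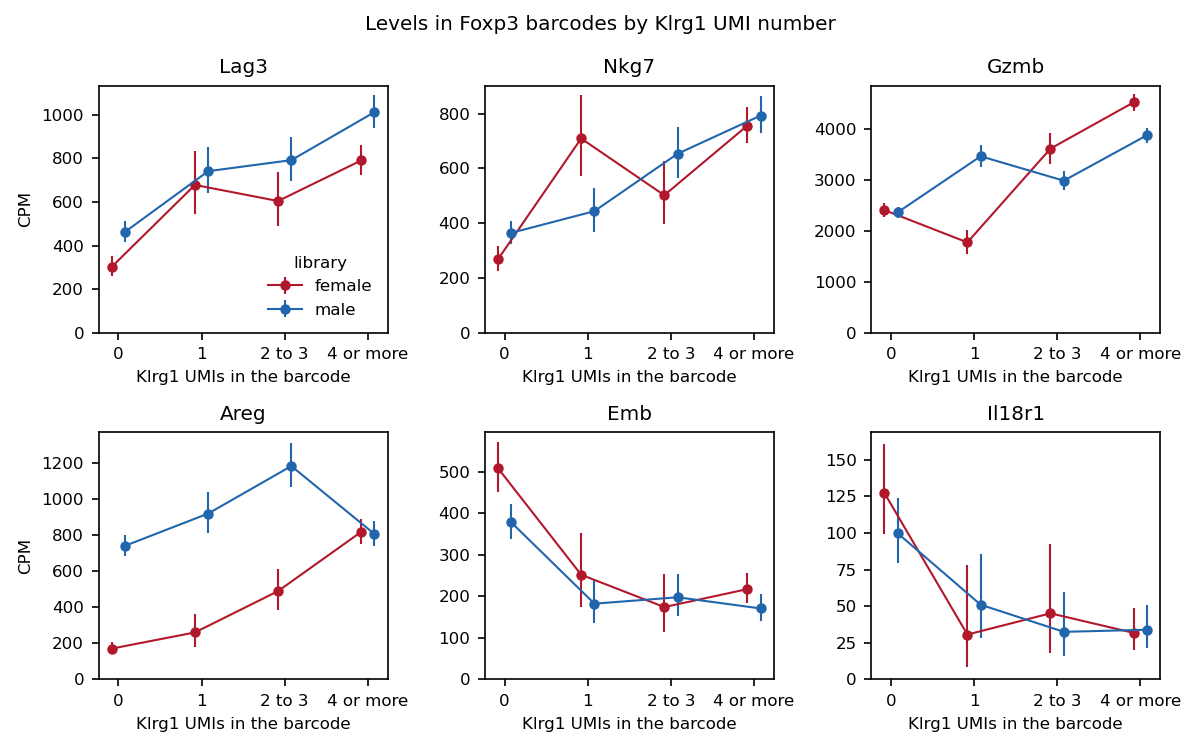
CPM of 6 genes in Treg barcodes grouped by Klrg1 UMIs (0, 1, 2 to 3, at least 4), with the female library in red, the male library in blue and exact Poisson intervals as bars; 0 is the Klrg1- reference without matching. Lag3 was lowest at 0 Klrg1 UMIs and Emb and Il18r1 highest there in both libraries, and Areg reached 818 and 806 CPM at 4 or more.

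Against Foxp3-negative Cd4 barcodes the members differed widely. With 108 female and 165 male pairs matched on depth (medians 7417 against 7315.5 and 6553 against 6235 UMIs), 1938 of 7916 genes (24.5%) passed in edgeR, 986 (12.5%) higher and 952 (12%) lower. DESeq2 called 511 (6.46%), 251 higher (3.17%) and 260 lower (3.28%), all among them, and with pairs within 5% edgeR called 1570 (20.7%), 10.4% higher and 10.2% lower. Cd4, Cd3d, Cd3e and Cd3g helped to choose this reference and were not tested.

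Treg genes and suppressive effectors separated members from these cells. Of 12 Treg core genes 11 rose and 1 fell (median 2.16), the one that fell being Nrp1 (17.5 against 51.1 CPM in the female, 12.2 against 72.4 CPM in the male library), and of 15 suppressive effectors 11 rose and 0 fell (median 1.78), against a median of 0.00 over all genes. Gzmb was at 3889 against 245 CPM and at 3576 against 241 CPM, a log2 difference of 3.84 (SE 0.13, edgeR adjusted p 5.84e-15). Il2ra was at 761 against 96.3 CPM and at 663 against 60.2 CPM. Areg was at 711 against 320 CPM and at 944 against 196 CPM, a log2 difference of 1.61 (SE 0.17, edgeR adjusted p 2.43e-07), and Itgae had one of 3.87 (SE 0.20, edgeR adjusted p 1.22e-12). The Areg reference level came from 10 of 108 female and 25 of 165 male barcodes, with 78.6% and 41.3% of its UMIs in 1, while 54 and 84 members held an Areg UMI. Of 10 costimulatory receptors 7 rose and 2 fell, and of 17 interferon gamma response genes 14 rose and 0 fell (median 1.10). Beside these counts, 12.5% of all 7916 genes tested rose and 12% fell.

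Among the genes furthest above this reference, Flicr, a long non-coding RNA that overlaps Foxp3 (32 female and 65 male UMIs), Ccr3, a receptor for eotaxins (70 and 25), and Tctex1d1 (19 and 36) had 0 UMIs in the reference of both libraries. Flicr (chrX:7573600-7581027, plus strand) shares bases and strand with Foxp3, which set both groups. Its ratio is therefore not independent of the rule and is given as a description. Against a floor of 3 counts per library, the log2 ratios of Flicr, Ccr3 and Tctex1d1 were 3.33 and 4.33, 4.46 and 2.95, and 2.58 and 3.48. Their exact lower 95% limits were 2.95 and 3.99, 4.12 and 2.55, and 2.13 and 3.11. DESeq2 did not call Flicr, Ccr3 or Tctex1d1 (DESeq2 adjusted p 0.418, 0.497 and 0.554). Rln3 had 109 and 96 UMIs against 0 and 2, and Tnfrsf8, the receptor CD30, 25 and 55 against 1 and 0. H2-Aa, H2-Ab1 and H2-Eb1 also belonged here, with their UMIs concentrated in few barcodes as above.

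Among the genes furthest below this reference, Il13, a type 2 cytokine, and Gzmk, a granzyme of memory-like T cells, had 0 UMIs in members of both libraries, against 113 and 34 and against 24 and 53 UMIs in the reference. The Il13 UMIs lay in 2 reference barcodes of each library, 90.3% of the female and 85.3% of the male ones in 1, and the Gzmk UMIs in 13 and 10. The log2 ratios of Il13 and Gzmk against the floor were -5.32 and -3.61, and -3.09 and -4.25. Their exact upper limits were -5.00 and -3.23, and -2.68 and -3.90. Tnfsf8, the CD30 ligand, was at 1.09 against 479 CPM and at 3.25 against 313 CPM, and Tnfsf11, the cytokine RANKL, at 10.9 against 318 CPM and at 7.30 against 432 CPM. Tcf7 was at 9.83 against 258 CPM and at 6.49 against 343 CPM, and Bcl2, a survival gene, at 1.09 against 40.6 CPM and at 2.43 against 75.9 CPM. Igfbp4 and Dthd1 were the other genes of this group. Of 16 resting and central genes 11 fell and 2 rose (median -1.51), and of 16 AP-1 and heat shock genes 9 fell and 0 rose (median -0.39). Over all 7916 genes tested, 12% fell and 12.5% rose. Ifng, the cytokine interferon gamma, was at 5.46 against 145 CPM and at 8.11 against 68.0 CPM. Cd40lg, the CD40 ligand of helper T cells, was at 2.18 against 165 CPM and at 13.8 against 115 CPM, a log2 difference of -4.04 (SE 0.32, edgeR adjusted p 1.72e-09).

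Both comparisons use the same members, and some genes are given for both side by side. Set against Foxp3-negative Cd4 barcodes, Cxcr6 was at 208 against 333 CPM (female) and 191 against 149 CPM (male) and did not pass (log2 -0.28, edgeR adjusted p 0.282), while it rose against Klrg1-negative Treg barcodes. Ccl3 had a log2 difference of 0.00 from Foxp3-negative Cd4 barcodes, made of 91.7 against 1.16 CPM in the female library, with 132 against 251 CPM in the male one, where 1 barcode held 90.3% of the reference UMIs. Nkg7 rose by a log2 of 0.53 (SE 0.12, edgeR adjusted p 0.00239) against the same cells.

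Female and male members were compared by size alone, since 1 library per sex allows no test. Of 6126 genes with at least 20 CPM in 1 library, 765 (12.5%) were at least 1.5-fold apart, 324 (5.29%) toward the female and 441 (7.2%) toward the male side. Ccl5, a chemokine of effector T cells, was at 883 CPM in female and 237 CPM in male members, a log2 of 1.90 (interval 1.70 to 2.09), with 31.8% of the female UMIs in 1 barcode, whereas in Klrg1-negative Treg barcodes it was at 412 and 546 CPM. Ccr3 was at 73.6 and 19.8 CPM, a log2 of 1.90 (1.22 to 2.62), and at 23.7 and 19.5 CPM in Klrg1-negative Treg barcodes. Il1rl1 was at 79.9 and 34.8 CPM, a log2 of 1.20 (0.65 to 1.77).

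Areg was lower in the female than in the male library in members and in Klrg1-negative Treg barcodes. It was at 687 CPM in female and 923 CPM in male members, a log2 of -0.43 (-0.57 to -0.29), and at 169 and 741 CPM in Klrg1-negative Treg barcodes, a log2 of -2.13 (-2.46 to -1.81). The 2 counting intervals do not overlap, and whether mice would show the same was not tested. Penk was at 396 CPM in female and 889 CPM in male members, a log2 of -1.17 with 27.7% of the female UMIs in 1 barcode, and likewise lower in female Klrg1-negative Treg barcodes (-1.66). Lag3, Gzmb, Tigit, Il2ra and Tnfrsf4 were within 1.5-fold between the libraries' members, with Lag3 at 745 and 900 CPM. Of 15 cell cycle genes measured, 6 were 1.5-fold apart toward the female side and 0 toward the male side. Of all 6126 genes, 5.29% and 7.2% were. The median log2 of the cell cycle genes was 0.53, against 0.64 in Klrg1-negative Treg barcodes, and the median over all genes was 0.00. A single barcode held 47.1% of the female and 36.1% of the male members' Mki67 UMIs. For Birc5 these shares were 40.4% and 37.5%, for Ccnb2 28.6% and 30.8%, and for Mcm2 25% and 13.6%.

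Several of the widest ratios rested on 1 barcode. All 49 female Xcl1 UMIs (0 in the male library), all UMIs of Clec10a in each library (6 and 37) and 87.8% of the male Gzmc UMIs came from a single barcode, and 92.9% of the female Ltf UMIs did. The others by the same rule were Cdc20 (24.2 and 3.16 CPM), Srm (23.1 and 3.16), Ctsw, a cathepsin (42.1 and 9.48), and Ppp4r1 (27.3 and 8.69) on the female side, and Def8 (13.7 and 74.3), Kansl1l (8.42 and 37.1), Lgals7 (5.26 and 21.3), Ckb (11.6 and 44.2), Ly6c1 (11.6 and 44.2) and Fam45a (7.36 and 24.5) on the male side, each as female and male CPM.

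T cell receptor beta segments were spread over many members. A most counted Trbv segment with at least 2 UMIs was found in 89 of 110 female and 128 of 167 male members. Trbv3 was the most frequent in the female library (16.9%, Clopper-Pearson interval 9.75% to 26.3%), followed by Trbv12-2 (15.7%), and Trbv3 and Trbv15 were level in the male library (12.5% each, 7.32% to 19.5%). In Klrg1-negative Treg barcodes the most frequent was Trbv19, in 18.6% of 59 female and 12.0% of 83 male barcodes, against 11.2% of the female and 9.38% of the male members. Trbv19 and Trbv13-2 were among the 26 genes called lower in members (log2 -1.04 and -1.63, edgeR adjusted p 0.0457 and 0.0239). The shares of barcodes were not tested. Segments count RNA and are not clonotypes.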

How the data were processed

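The deposited matrices held raw UMI counts per gene and barcode of 1 female and 1 male library (3658 and 3708 barcodes, 55880364 and 50946624 UMIs, 32285 genes). Per the file headers the authors' counts were written by Cell Ranger 7.0.1. The submitters' processing notes list Seurat 5 and the build GRCm38, and alignment settings are not given in the sources used here. Gene names were placed on GENCODE M21 (99.6% matched). Members, gene lists and tests were chosen with earlier results of these data known. No doublet caller was run; the limits on Cd8 genes and on total UMIs stood in for one.

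Reference barcodes were paired without reuse to members of the same library, deepest first. Summed counts were tested with edgeR 4.0.16 (TMM, filterByExpr, quasi-likelihood, library as block because both populations come from the same library) in R 4.3.3 and adjusted by Benjamini-Hochberg over all genes; Klrg1, Foxp3 and the Cd8 genes were left out. DESeq2 1.42.0 was an alternative. The script was tested on simulated data. Intervals and shares were computed in Python 3.11.15 with scipy 1.17.1. Named genes were the label genes and the 12 highest and 12 lowest called against Klrg1-negative Treg barcodes. The called ones had to have the same direction in both libraries and at least 20 CPM in 1 population of each library. Clec2i, Ly6c2 and Lrig1 miss this level in the male library. The 8 and 8 against Foxp3-negative Cd4 barcodes followed the same rule. Up to 4 genes per list and the 8 and 8 widest female to male ratios were named as well. Receptor segments, mitochondrial, ribosomal and predicted genes were left out of the ranked sets. Other genes were picked from the calls after their values were seen. The alternatives are in the closing section.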

Additional observations from a re-analysis of the deposited data

Results flagged for a closer look

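Hspa1b, a heat shock gene, and Tyrobp, a signalling adaptor of myeloid and natural killer cells, lay in opposite directions in the 2 libraries when members were set against matched Klrg1-negative Treg barcodes. Hspa1b had a log2 ratio of 2.11 in the female library, with -0.33 in the male one, and 71.8% of its female member UMIs lay in 1 barcode. Tyrobp had a log2 ratio of -4.16 in the female library, with 1.57 in the male one, and 93.3% of its UMIs in the female reference lay in 1 barcode. With 1 library per sex, neither difference was tested.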

How the results depend on the processing

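The 33 genes higher and 26 lower in members than in matched Klrg1-negative Treg barcodes became 7 and 1 with DESeq2, 18 and 8 with no filter on low counts, 142 and 130 without matching, 57 and 49 after thinning, 110 and 67 with at most 15000 UMIs and 87 and 65 with at least 3 Foxp3 UMIs. DESeq2 gave several of the called genes with few UMIs no adjusted p. Chosen after seeing the data, pairs within 5% gave 0 and 0, and leaving out barcodes with other lineages' genes gave 58 and 48. Every called gene with a value kept its direction in these settings, and the cause of the changed counts was not tested. The library pairs the 2 populations; with no replicate block, 7 and 2 genes passed. Against Foxp3-negative Cd4 barcodes DESeq2 called 251 and 260 in place of 986 and 952. Between the libraries' members 87 and 113 genes were 1.5-fold apart at 50 CPM or more, and 682 and 766 after thinning, in place of 324 and 441. The Klrg1-positive share was 47.9% and 43.0% with at least 2 Klrg1 UMIs, and 50.5% in the male library after thinning.

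Genes that changed sign against Klrg1-negative Treg barcodes had not passed. With the female or the male library alone, the log2 values were -0.33 to 1.90 for Ccr3, -3.22 to 0.63 for Fcer1g, -4.16 to 1.57 for Tyrobp, -0.33 to 2.11 for Hspa1b, -0.0094 to 0.013 for Rora, -0.0088 to 0.85 for Isg15, -0.83 to 0.21 for Hspe1 and -0.14 to 0.064 for Ikzf2. Rora was also at -0.017 with no filter, -0.029 without matching, -0.081 with at least 3 Foxp3 UMIs and -0.12 with pairs within 5%, and Hspa1b at -0.14 after thinning and -0.21 without other lineages' barcodes. With 1 library left there is no test. Depth limits genes with few UMIs, whose ratios rest on few barcodes.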
